A study of Mus musculus with 12 samples.

Results

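Pramel, Obox and Rhox are 3 multicopy gene families of the mouse germ line, early embryo and placenta, and their RNA levels were examined in 12 libraries of mouse embryonic stem cells (ESCs). Members were all genes whose symbol begins with Pramel, Obox or Rhox followed by a digit. These were 68 of 23496 genes in the table: 32 Pramel, 6 Obox and 30 Rhox. In the mm9 build, 22 Pramel genes lie on chromosome 4, 6 on chromosome 5, 2 on chromosome 2, 1 on chromosome 12 and 1 on the X, while the Obox genes lie on chromosome 7 and the Rhox genes on the X. The families had been picked from earlier results on the same libraries, that is, chosen by measured values. The differences of their members are therefore given as a description, and no p-value is printed for a member. Where members are said to be called or not called, a threshold on an adjusted p sorts them, which is no test of the families.

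Pramel genes encode leucine-rich repeat proteins related to the human tumour antigen PRAME, and most are transcribed in oocytes, early embryos or testis. Pramel7 is known to support pluripotency downstream of the cytokine LIF and to direct the DNA methylation factor Uhrf1 to degradation. Obox genes encode homeodomain proteins of the oocyte and early embryo. Rhox genes form a homeobox cluster on the X chromosome with members expressed in testis, epididymis, ovary and placenta, and DNA methylation is known to keep parts of the cluster silent.

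The study held 3 groups of 4 RNA-seq libraries each. For 2 of the groups, wild type and Tfcp2l1 knockout, the medium was 2i: no serum, 3 µM CHIR99021 to inhibit GSK3 and 1 µM PD0325901 to inhibit MEK. Wild-type cells kept in 15% fetal bovine serum (FBS), without these inhibitors, made up the remaining group. LIF was present at 1000 units/mL in all 3 groups. Tfcp2l1 is a transcription factor of the LIF pathway that supports self-renewal. The labels name no cell line or clone, do not say which part of Tfcp2l1 was disrupted, and do not say that the 4 repeats of a group were separate cultures. The spread between libraries may therefore be technical.

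Values are FPKM, which are per transcript length, so levels can be set beside each other between genes. Per-library values are given for replicates 1 to 4 in that order. Tfcp2l1 itself stood at 133, 143, 112 and 139 FPKM in wild-type 2i cells, at 76.1, 72, 82.9 and 84.7 in the knockout, and at 25.8, 37.1, 30.7 and 31.5 in FBS. RNA of the targeted gene was thus lower in every knockout library than in any wild-type library in 2i, though far from absent. FPKM summed to between 347772 and 358340 per library, and the number of reads behind them is unknown. Among the ESC markers, 8 of 8 were tested, and 5 of them were lower and 0 higher in the knockout. Their median log2 difference was small, at -0.19, and 21.4% of all genes tested were lower. Against FBS, 6 of the markers were higher and 1 lower in 2i, beside 37.1% and 35.3% of all genes tested.

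Copies of these families share sequence, so reads can be divided between them in more than 1 way. Of the 25 members with a group mean of at least 1 FPKM, 9 had over 50% of the 50-base windows of their transcripts in another annotated gene, and 7 had under 1%. The near-unique 7 were Pramel1, Pramel6, Pramel7, Pramel12, Pramel13, Rhox1 and Rhox13. At the other end, Pramel37 shared 100% of its windows, Rhox2e 100%, Pramel39 97.1% and Rhox2a 93.4%. Values of those 4 genes are best read as levels of a group of copies. The others over 50% were Pramel42 (90.0%), Pramel30 (73.8%), Pramel14 (73.5%), Pramel16 (63.5%) and Pramel20 (55.1%). Their values also depend on how shared reads were divided.

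RefSeq's GRCm38.p6 table held the 300-base window, from 250 bases before to 50 after the start, for 20 of the 25. Of the 190 pairs of these windows, 7 were over 60% identical, and the other pairs lay between 41.1% and 56.2%, with a median of 46.5% over all pairs. Copies that share transcript windows were among the unlike ones, such as Pramel16 and Pramel20 at 46.6% and Pramel11 and Pramel21 at 47.8%. The Pramel30 and Pramel14 windows, shown because these 2 close relatives behaved differently in the knockout, were 97.3% identical over the alignment. They lie at chr4:144329999-144330298 (plus strand) and chr4:143994320-143994619 (minus strand), and capitals mark the bases that differ between them, a base without a partner included:
Pramel30: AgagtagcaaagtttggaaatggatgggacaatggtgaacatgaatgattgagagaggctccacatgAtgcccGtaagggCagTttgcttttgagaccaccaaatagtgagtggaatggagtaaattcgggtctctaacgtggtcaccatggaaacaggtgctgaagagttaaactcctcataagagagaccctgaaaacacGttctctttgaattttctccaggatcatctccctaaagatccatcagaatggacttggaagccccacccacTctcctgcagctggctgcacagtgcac
Pramel14: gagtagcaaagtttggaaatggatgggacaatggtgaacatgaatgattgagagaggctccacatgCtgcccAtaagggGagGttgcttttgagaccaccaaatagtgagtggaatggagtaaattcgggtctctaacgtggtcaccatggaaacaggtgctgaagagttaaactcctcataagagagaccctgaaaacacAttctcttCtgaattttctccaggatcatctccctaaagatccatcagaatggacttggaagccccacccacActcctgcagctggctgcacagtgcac

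Pramel7, on another chromosome, had a window that was 75.2% identical to that of Pramel14 and 73.7% to that of Pramel30. It lies at chr2:87492369-87492668 (minus strand) and is shown because, after each other, both had their closest match in it among the 20. Capitals mark bases that differ from Pramel30:
Pramel7: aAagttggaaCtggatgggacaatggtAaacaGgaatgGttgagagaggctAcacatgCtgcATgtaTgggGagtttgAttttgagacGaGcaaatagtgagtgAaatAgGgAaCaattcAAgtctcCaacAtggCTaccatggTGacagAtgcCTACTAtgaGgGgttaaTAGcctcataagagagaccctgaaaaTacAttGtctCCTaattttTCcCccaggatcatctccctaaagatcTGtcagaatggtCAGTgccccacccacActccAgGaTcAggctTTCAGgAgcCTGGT

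The highest Pramel genes of the chromosome 5 cluster, Pramel39 and Pramel37, had windows that were 98.0% identical. They lie at chr5:94306747-94307046 (minus strand) and chr5:94070496-94070795 (minus strand), and capitals mark the differing bases:
Pramel39: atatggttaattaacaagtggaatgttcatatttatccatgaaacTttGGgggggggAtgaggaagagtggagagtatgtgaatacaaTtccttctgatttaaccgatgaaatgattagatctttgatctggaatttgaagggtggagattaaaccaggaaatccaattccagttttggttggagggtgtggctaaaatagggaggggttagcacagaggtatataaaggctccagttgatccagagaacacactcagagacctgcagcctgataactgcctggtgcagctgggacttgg
Pramel37: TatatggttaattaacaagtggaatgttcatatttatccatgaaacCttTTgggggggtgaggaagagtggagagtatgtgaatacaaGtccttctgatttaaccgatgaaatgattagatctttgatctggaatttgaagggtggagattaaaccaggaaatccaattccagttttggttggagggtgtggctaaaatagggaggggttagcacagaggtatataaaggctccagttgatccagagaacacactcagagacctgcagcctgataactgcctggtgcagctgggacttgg

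The other pairs over 60% were Rhox2a and Rhox2e (99.7% identical), Pramel11 and Pramel24 (84.4%) and Pramel20 and Pramel31 (75.6%). The STAT motif TTCNNNGAA was in 0 of the 20 windows, against 8.3% of all 32851 windows. The spaced pair CCAG and CCNG, 6 bases apart, the type of site bound by Tfcp2l1, was also in 0 of 20, against 10.3% of all. TAATCC, the core bound by paired-like homeodomains, was in the windows of Pramel11, Pramel17 and Rhox13, against 7.1% of all. Both strands were searched, and only TAATCC was found, so no motif overlapped another. CG was scarce: the median of all windows was 7, while Pramel20 and Pramel31 had 3 each, Pramel30 had 4, Pramel14 had 2, Pramel7, Pramel37 and Pramel39 had 1 each and Pramel21 had 0. The 4 windows at or above that median were those of Pramel1, with 20, Rhox2a and Rhox2e, with 8 each, and Pramel13, with 7.

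Low levels were common. Of the 68 members, 6 were listed at 0 in every library: Pramel22, Pramel26, Pramel48, Rhox3h, Rhox8 and Rhox11. Only 23 reached 1 FPKM in at least 4 libraries and entered the fit across 12329 genes, namely 18 Pramel, 1 Obox and 4 Rhox members. A member could pass that filter through the group where it was high. The 1 FPKM level for showing a member fell between Rhox13 and Pramel42, whose highest group means were 1.13 and 1.21, and Rhox2c and Rhox4e, at 0.82 and 0.561. The 43 members that were not shown had group means of at most 0.451 FPKM among 14 Pramel, 0.532 among 5 Obox and 0.82 among 24 Rhox genes. The count with a mean of at least 1 FPKM was 24 in wild-type 2i cells, 21 in the knockout and 8 in FBS.

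The first comparison of the study asks which transcripts depend on Tfcp2l1 in 2i. A gene is called here when its adjusted p, from limma over all genes tested, was under 0.05. Of the 23 members tested, 13 were called higher and 6 lower in the knockout, with a median log2 difference of 0.89 (0.01 over all genes). Over all genes tested, 24.0% were called higher and 21.4% lower. By family, 11 Pramel members were higher and 3 lower, the Obox member was lower, and 2 Rhox members were higher and 2 lower. The second comparison sets wild-type ESCs in 2i against those in FBS and uses the same wild-type 2i libraries. There 19 members were called higher in 2i and 2 lower, and the median difference was 1.58 (0.01 over all genes), beside 37.1% and 35.3% of all genes. Since the families were chosen with these comparisons known, nothing is read from the counts beside those shares.

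Summed over its 32 members, Pramel RNA was highest in the knockout, between 226 and 387 FPKM. The sum was 214, 124, 238 and 116 FPKM in wild-type 2i cells and 33, 26.4, 43.1 and 38.7 in FBS. Means were 173 ± 62.4, 332 ± 75.3 and 35.3 ± 7.25 (SD, n = 4 each) for wild type in 2i, knockout and FBS. The 2i groups overlapped slightly, since wild-type replicate 3 lay above knockout replicate 4. Within the sum, 10 members went from 118 ± 62 to 294 ± 73.3 FPKM, whereas the other 22 went from 55.3 ± 7.2 to 37.4 ± 3.36 (SD, n = 4). The 10 were grouped after their values were seen: they are the 11 members called higher in the knockout without Pramel1, which alone among the 11 was not called higher in 2i than in FBS. The rise of the 10 is thus fixed by how they were chosen, and so in part is the contrast with the 22. Those 22 were themselves mixed: Pramel1 was called higher in the knockout, Pramel7, Pramel13 and Pramel30 lower, and Pramel12 was not called. In these bulk libraries, more cells of a kind and more RNA per cell cannot be told apart.

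**Figure D1:**
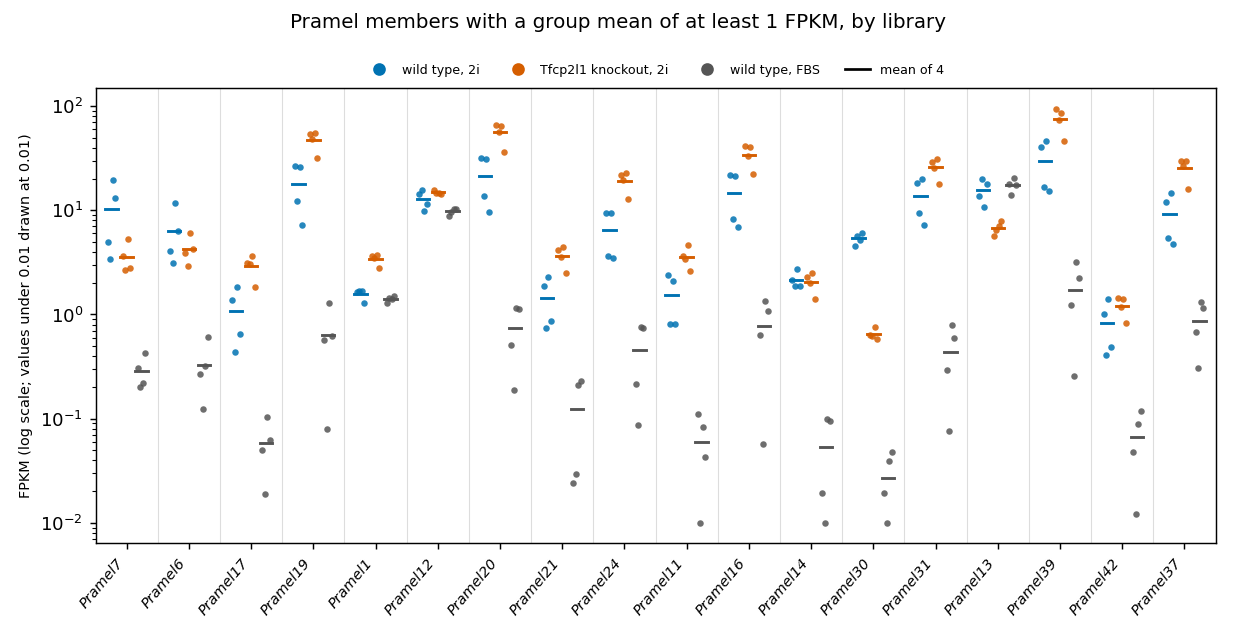
FPKM of the 18 Pramel members with a group mean of at least 1 FPKM, on a log axis, in genome order; points are libraries and bars are means of 4. Pramel30 and Pramel13 sit lower in all 4 knockout libraries than in any wild-type library in 2i, unlike the members next to them.

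The 10 were Pramel11, Pramel16, Pramel17, Pramel19, Pramel20, Pramel21, Pramel24, Pramel31, Pramel37 and Pramel39. The highest of them was Pramel39, as summed over 3 entries of the same transcript. Those on chromosome 5 were close to equal, at 20.3 and 20.4 FPKM in wild-type 2i replicate 1. The entry on unplaced sequence was at 0 in all libraries. Taken alone, each entry lay below Pramel20 in every 2i library. Summed, Pramel39 stood at 40.8, 16.9, 46 and 15.4 FPKM in wild-type 2i cells and 94.8, 74.5, 85.6 and 46.4 in the knockout. In FBS it stood at 1.23, 0.256, 3.21 and 2.25 FPKM. Every knockout library was above every wild-type one, though by little (46.4 against 46), a log2 difference of 1.42 ± 0.41 (SE), and 2i was above FBS by 3.47 ± 0.41.

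Pramel20, at 21.6 ± 11.7 FPKM in wild-type 2i cells, was the highest of the copies on chromosome 4, at chr4:143157370-143163701 (mm9). Its libraries read 31.8, 13.6, 31.3 and 9.55 FPKM in wild type, 66.7, 56.2, 64.2 and 36.7 in the knockout, and 0.509, 0.189, 1.16 and 1.13 in FBS. The 3 groups did not overlap. Differences were 1.47 ± 0.35 for knockout over wild type and 3.57 ± 0.35 for 2i over FBS (log2, SE). Its windows were 55.1% shared, for the most part with the gene model Gm13040.

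Pramel19 lies apart from the main chromosome 4 group, next to Pramel17. It read 26.9, 12.2, 26 and 7.16 FPKM in wild type, 54.5, 48.2, 55.6 and 31.5 in the knockout, and 0.569, 0.0792, 1.29 and 0.617 in FBS. Pramel16, which shares 63.5% of its windows, read 22, 8.23, 21.2 and 6.88 FPKM in wild type, 41.2, 33.3, 40.5 and 22.3 in the knockout, and 0.634, 0.0572, 1.35 and 1.08 in FBS. In both, the lowest knockout library lay above the highest wild-type one, by a small margin for Pramel16. Log2 differences between the genotypes were 1.49 ± 0.36 for Pramel19 and 1.31 ± 0.36 for Pramel16.

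Pramel24 was lower in level but had the largest difference of the named copies, 1.52 ± 0.30. It read 9.39, 3.61, 9.46 and 3.48 FPKM in wild-type 2i cells, 21.9, 19.7, 22.6 and 12.8 in the knockout, and 0.214, 0.0871, 0.764 and 0.747 in FBS. With 14.8% of its windows shared, it was among the copies whose reads are easier to place. Pramel37 read 12.1, 5.47, 14.6 and 4.72 FPKM in wild type, 30.1, 26.6, 29.6 and 15.9 in the knockout, and 0.679, 0.303, 1.31 and 1.16 in FBS.

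Pramel31 had ranges that met: 18.4, 9.46, 20 and 7.3 FPKM in wild-type 2i cells, 29.4, 25.6, 31.3 and 18 in the knockout, and 0.291, 0.0768, 0.786 and 0.596 in FBS. Knockout replicate 4 lay below 2 wild-type libraries, and the difference was 0.95 ± 0.28. The lower members of the set, Pramel11, Pramel17 and Pramel21, named because they complete it, had wild-type means of 1.53, 1.08 and 1.45 FPKM and knockout means of 3.56, 2.9 and 3.68. Their FBS means were 0.0593, 0.0588 and 0.123 FPKM. With a pseudocount of 0.01 the knockout calls of Pramel11, Pramel16, Pramel19, Pramel21, Pramel31 and Pramel39 were lost, those of Pramel16, Pramel31 and Pramel39 already with 0.1, and no direction changed.

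The same libraries were high for all 10. Replicates 1 and 3 were the highest pair in wild type and in the knockout for 10 of 10, a pattern looked for after the values were seen. It held for 14 of the 25 members shown, the others being Pramel14, Pramel42, Obox6 and Rhox9. Within wild-type 2i cells the sum of the 10 was 167, 71.5, 175 and 56.9 FPKM, a ratio of 3.08 between the highest and lowest library. In the knockout it was 349, 294, 342 and 191, a ratio of 1.83. In FBS it was 4.31, 1.1, 10.3 and 7.92, a ratio of 9.35. The sum of the 10 thus differed more between libraries of a group than the sum of the other 22 Pramel members, with ratios of 1.35, 1.22 and 1.3. This holds for the sums and not for each member: Pramel7, among the 22, ran from 3.42 to 19.4 FPKM in wild-type 2i cells.

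The ratio to Pramel20 over the 8 libraries in 2i was 1.25 to 1.61 for Pramel39, 0.749 to 0.9 for Pramel19, 0.593 to 0.72 for Pramel16 and 0.266 to 0.364 for Pramel24. It was 0.379 to 0.494 for Pramel37 and 0.441 to 0.764 for Pramel31, and among the lower copies it was 0.0324 to 0.0686 for Pramel17. Outside the set it was 0.052 to 0.134 for Pramel1 and 0.0845 to 1.87 for Pramel13. Pramel39 and Pramel37 enter these ratios as sums over their entries, which raises their ratios above those of a single entry. Ratios within the set are partly fixed by how it was chosen, since its members were all higher in the knockout. Several of these copies share windows, and the part of shared reads in these ratios was not tested.

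**Figure D2:**
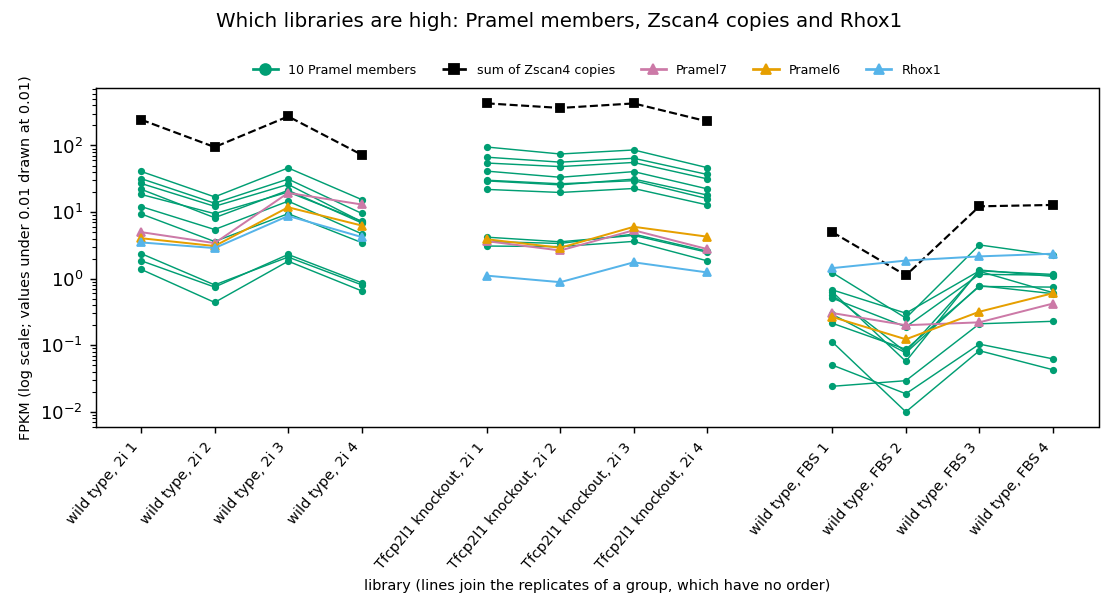
FPKM (log axis) in each of the 12 libraries for 10 of the 11 Pramel members called higher in the knockout (without Pramel1), for the summed Zscan4 copies, and for Pramel7, Pramel6 and Rhox1; lines join libraries of a group. The 10 members and Zscan4 are high in wild-type 2i replicates 1 and 3, while Pramel7, Pramel6 and Rhox1 are highest in replicate 3 and second in replicate 4.

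Zscan4 genes, which mark the rare two-cell-like state of ESC cultures, had the same high libraries. The sum of 5 Zscan4 copies was 244, 94.6, 273 and 72.6 FPKM in wild-type 2i cells, 429, 366, 428 and 230 in the knockout, and 5, 1.12, 12.2 and 12.8 in FBS. The 10 Pramel members together held 0.641 to 0.783 of the Zscan4 sum in wild-type 2i libraries and 0.799 to 0.83 in the knockout ones. In FBS, where both were low, the ratio ran from 0.617 to 0.977. The list of two-cell-like genes was chosen with earlier results of these data known. Of its genes, 17 were in the table and 15 were tested. In the knockout 12 were higher and 0 lower, beside 24.0% and 21.4% of all genes tested. Against FBS 15 were higher in 2i and 0 lower, beside 37.1% and 35.3% of all genes. Tmem92, one of the list, had a mean of 22.8 ± 11.2 FPKM in wild-type 2i cells, 48.8 ± 9.9 in the knockout and 0.445 ± 0.398 in FBS. Zscan4f, the highest of the list, was not called between the genotypes (1.18 ± 0.47).

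Fibroblast markers moved in the same direction between the genotypes: of 10 tested, 9 were higher in the knockout and 0 lower. The shares of all genes tested were 24.0% and 21.4%. Against FBS, 8 of the markers were higher in 2i and 2 lower, beside 37.1% and 35.3%. Col1a1, the highest of them, read 51.9, 61.9, 79 and 85.1 FPKM in wild-type 2i cells and 103, 118, 135 and 167 in the knockout. Replicate 4, its highest library, was the lowest for the sum of the 10 Pramel members in both groups. The markers' summed level was 159 to 261 FPKM in wild-type 2i cells, 299 to 507 in the knockout and 56.3 to 76.0 in FBS, and none was at 0 in all libraries. The part of fibroblasts in the Pramel values was not tested. Of the oocyte markers, 9 of 10 stayed under 1 FPKM in all 12 libraries, 1 of them at 0. The exception was Zp3, a zona pellucida gene, which was tested and called higher in the knockout (0.56 ± 0.14), with means of 2.59 FPKM in wild-type 2i cells, 4.26 in the knockout and 6.87 in FBS. Among the low ones, Zp1, Figla and Nobox had knockout ranges above wild type in 2i, and the ranges of the rest overlapped. Means in wild type and knockout were 0.0263 and 0.0533 FPKM for Zp1, 0.0456 and 0.33 for Figla and 0.142 and 0.384 for Nobox. The part of oocyte-type transcription in the Pramel values was not tested. Oog1, Oog2, Oog3 and Oog4, oocyte relatives of the Pramel genes, were also near 0, with no group mean above 0.17 FPKM.

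Other Pramel genes differed in other ways. Pramel13, a member with no shared windows, was lower in the knockout, at 13.8, 19.9, 10.8 and 17.9 FPKM in wild-type 2i cells against 5.64, 6.54, 7.02 and 7.96. In FBS it stood at 17.8, 13.9, 20.4 and 17.6 FPKM. The knockout libraries were below both wild-type groups, with a log2 difference of -1.07 ± 0.16 in 2i, and the 2 wild-type groups overlapped. Pramel12 read 14.5, 15.8, 9.86 and 11.5 FPKM in wild-type 2i cells, 15.7, 14.8, 14.6 and 14.4 in the knockout, and 8.92, 9.66, 10.3 and 10.4 in FBS. Pramel12 was not called between the genotypes (0.21 ± 0.11), and was called higher in 2i than in FBS with overlapping ranges (0.35 ± 0.11).

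Pramel30 and Pramel14, singled out after their values were seen, lie on chromosome 4, share 73.8% and 73.5% of their windows with each other, and had the near-identical promoters shown above. Pramel30 read 4.52, 5.64, 5.2 and 6.12 FPKM in wild-type 2i cells and 0.631, 0.626, 0.762 and 0.581 in the knockout. Pramel14 read 2.16, 1.88, 2.74 and 1.89 in wild type and 2.27, 2.01, 2.48 and 1.41 in the knockout. Pramel30 was 8.26-fold lower in the knockout with no overlap (log2 of FPKM + 1, -1.94 ± 0.08), whereas Pramel14 was not called (-0.06 ± 0.12). The ratio of Pramel30 to Pramel14 was 1.9 to 3.25 in wild type and 0.278 to 0.411 in the knockout. How reads shared by these genes were divided is unknown, and its part in this contrast was not tested. Both were close to 0 in FBS, with means of 0.0267 and 0.0534 FPKM.

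On the chromosome, Pramel31 starts at base 143947867 (mm9), between Pramel30, which ends at base 143923368, and Pramel13, which starts at base 143981577. Pramel31 was higher in the knockout while Pramel30 and Pramel13 were lower, and Pramel15, which also lies before Pramel13, stayed at or under a group mean of 0.0268 FPKM. The median log2 difference of the other tested genes of chromosome 4 was 0.02 between the genotypes and 0.03 between the media. The corresponding medians of chromosome 5 were 0.03 and 0.03.

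Pramel7 (chr2:87329245-87332575, mm9) and Pramel6 (chr2:87348615-87351022) are neighbours, with few or no shared windows. Pramel7 read 5.0, 3.42, 19.4 and 13 FPKM in wild-type 2i cells, 3.66, 2.65, 5.33 and 2.78 in the knockout, and 0.305, 0.2, 0.221 and 0.423 in FBS. Its wild-type spread was wide (10.2 ± 7.44), the genotypes overlapped, and the log2 difference was -1.05 ± 0.38. That call was lost without wild-type 2i replicate 3, where the difference was -0.68, and also without wild-type 2i replicate 4, FBS replicate 1 or knockout replicate 1, 2 or 4. Against FBS, Pramel7 was higher in every 2i library of either genotype (2.86 ± 0.38).

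Pramel6, added after its values were seen as the neighbour of Pramel7, read 4.05, 3.09, 11.8 and 6.28 FPKM in wild-type 2i cells and 3.91, 2.91, 6.01 and 4.27 in the knockout. It was not called between the genotypes (-0.36 ± 0.29), and its FBS mean was 0.328 ± 0.202. Both neighbours were highest in wild-type replicate 3 and then 4, not in replicates 1 and 3. Pramel1, likewise singled out, was called higher in the knockout, going from 1.65, 1.69, 1.68 and 1.28 FPKM to 3.64, 3.46, 3.75 and 2.81. It stayed at 1.3, 1.43, 1.42 and 1.51 FPKM in FBS, so that 2i and FBS overlapped for it.

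DNA methylation machinery was described from a list of 14 genes, all tested. The list includes Uhrf1, the factor that Pramel7 is known to direct to degradation. RNA levels do not measure that degradation, and the level of Uhrf1 itself is not given here. Of the 14 genes, 4 were higher and 3 lower in the knockout, beside 24.0% and 21.4% of all genes tested. Against FBS 6 were higher and 6 lower in 2i, beside 37.1% and 35.3% of all genes. Dnmt3l, a cofactor of the de novo methyltransferases, had means of 33.1 ± 11.5 FPKM in wild-type 2i cells, 64.4 ± 8.48 in the knockout and 301 ± 33.5 in FBS. Dnmt3a, a de novo methyltransferase, had means of 6.14, 12 and 22.7 FPKM in the same order. Dnmt3b had means of 10, 13.3 and 103 FPKM and was not called between the genotypes. Elob, the highest of the list, ran the other way, with means of 223, 204 and 186 FPKM. It was not called between the genotypes and was called higher in 2i than in FBS.

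Obox RNA came almost wholly from Obox6, at chr7:16418599-16425028 (mm9), which made up 98.2% of the family sum in wild-type 2i cells. Obox6 read 25.8, 21.7, 34 and 23.6 FPKM in wild-type 2i cells, 16.6, 14.9, 17.7 and 15.5 in the knockout, and 1.07, 0.465, 1.18 and 1.55 in FBS. The 3 groups did not overlap. The knockout was 1.62-fold lower (log2 -0.65 ± 0.16), a call that was lost with a pseudocount of 0.01, and 2i was 24.6-fold above FBS (3.73 ± 0.16). Other genes of chromosome 7 had medians of 0.05 and -0.00 in the 2 comparisons.

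The other 5 Obox genes were all under 1 FPKM and were not tested. Obox3, singled out as the highest of them, moved the other way from Obox6: 0.352, 0.258, 0.251 and 0.137 FPKM in wild type, 0.511, 0.571, 0.657 and 0.389 in the knockout, and listed at 0 in all 4 FBS libraries. Of 11 other homeobox genes of the paired-like, oocyte or placenta type, 6 were tested. In the knockout 4 were higher and 1 lower, beside 24.0% and 21.4% of all genes tested. Against FBS 3 were higher and 2 lower in 2i, beside 37.1% and 35.3% of all genes. Crxos, a homeobox gene of the same chromosome, had means of 4.48, 6.21 and 0.096 FPKM in wild-type 2i cells, knockout and FBS. Otx2, a driver of exit from the naive state, had means of 1.7, 1.75 and 18.1 FPKM. Duxbl1 and Esx1 had the largest called differences between the genotypes and were both higher in the knockout. In the same order, means were 2.04, 6.49 and 2.51 FPKM for Duxbl1 and 7.09, 16.2 and 11.8 for Esx1.

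**Figure D3:**
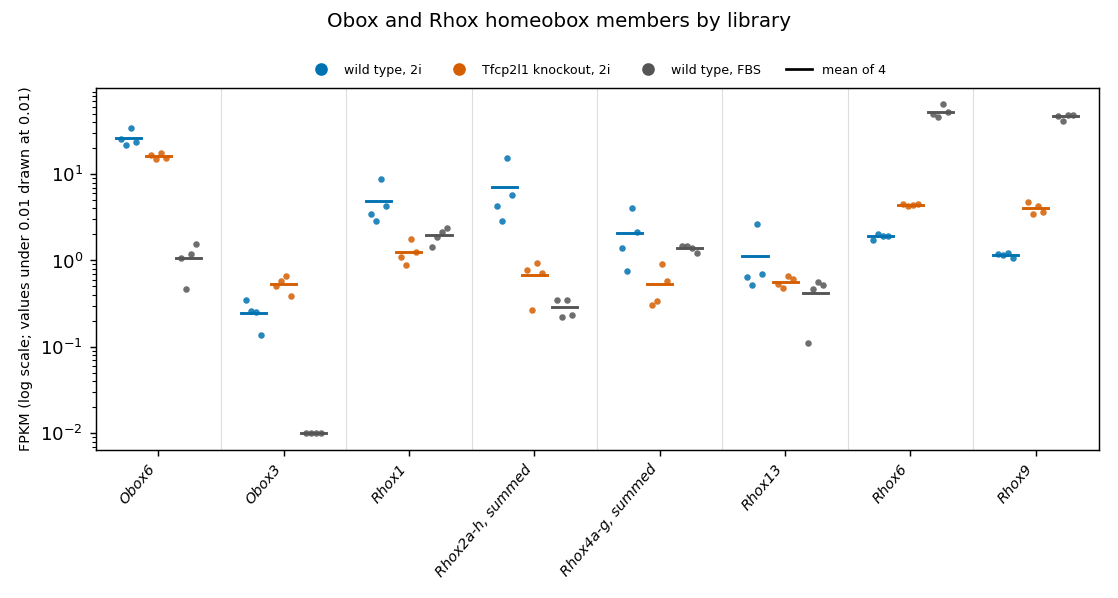
FPKM (log axis) of Obox and Rhox members or sums of copies by library; points are libraries, bars are means of 4. Rhox6 and Rhox9 are the only ones shown with their highest levels in FBS, near 50 FPKM, and Obox3 lies at 0 in all FBS libraries (drawn at 0.01).

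The Rhox family split into opposite patterns. Rhox6 (chrX:35180232-35183034, mm9) and Rhox9 (chrX:35252274-35254947), genes first described from placenta, were the only Rhox genes above 3 FPKM in an FBS library. Rhox6 read 1.74, 2.03, 1.94 and 1.93 FPKM in wild-type 2i cells, 4.56, 4.26, 4.43 and 4.46 in the knockout, and 49.5, 45.4, 64.3 and 52.6 in FBS. Rhox9 read 1.2, 1.15, 1.23 and 1.07, then 4.81, 3.44, 4.22 and 3.6, then 47.3, 41.5, 48.9 and 48.9. For both, the 3 groups were apart in every library, with little spread within a group.

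Wild-type ESCs in 2i had 27.7-fold less Rhox6 RNA than in FBS and 40.2-fold less Rhox9 RNA (log2 -4.20 ± 0.09 and -4.46 ± 0.08). The knockout in 2i was 2.32-fold and 3.46-fold above wild type (0.90 ± 0.09 and 1.21 ± 0.08), and still below FBS in all libraries. Rhox9 was 0.553 to 0.693 of Rhox6 in wild-type 2i cells and 0.806 to 1.05 in the knockout. Of the Rhox6 windows, 16.5% were also in Rhox9.

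Rhox7a and Rhox8, which lie between Rhox6 and Rhox9, were near or at 0, and Rhox7a had no group mean above 0.104 FPKM. Trophoblast markers also had their highest sum in FBS: 24.8 to 30.2 FPKM, against 6.65 to 9.36 in wild-type 2i cells and 8.74 to 10.8 in the knockout. Of 9 in the table, 6 were tested. In the knockout 3 were higher and 1 lower, beside 24.0% and 21.4% of all genes tested. Against FBS 0 were higher and 5 lower in 2i, beside 37.1% and 35.3% of all genes. The part of these markers in the Rhox6 and Rhox9 values was not tested. Cdx2, a trophoblast marker, had means of 0.666, 3.54 and 1.5 FPKM in wild-type 2i cells, knockout and FBS, so it was highest in the knockout.

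Rhox1 (chrX:34753800-34762253), at the start of the cluster, moved oppositely to Rhox6 and Rhox9. It read 3.5, 2.88, 8.75 and 4.22 FPKM in wild-type 2i cells, 1.11, 0.886, 1.76 and 1.24 in the knockout, and 1.44, 1.87, 2.16 and 2.37 in FBS. The knockout was 3.87-fold lower with no overlap (log2 -1.29 ± 0.23), and its range overlapped that of FBS. Wild type in 2i was above FBS (0.89 ± 0.23). No other annotated gene held any of its windows.

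Rhox2a stood at 1.61, 1.18, 4.89 and 1.96 FPKM in wild-type 2i cells and at 0.139, 0.0551, 0.273 and 0.167 in the knockout. Its FBS mean was 0.105 ± 0.0792, and the 2i wild-type libraries lay above both other groups. Rhox2e, which did not pass the filter, read 1.11, 0.716, 4.25 and 1.78 in wild type, 0.402, 0.14, 0.198 and 0.288 in the knockout, and 0.0168, 0.0935, 0.147 and 0.0523 in FBS. Over the 8 Rhox2 copies the sum was 4.29, 2.85, 15.2 and 5.68 FPKM in wild type, 0.777, 0.27, 0.927 and 0.722 in the knockout, and 0.224 to 0.351 in FBS. Summing makes the level less dependent on how shared reads were divided among the copies, though whether a read was counted at several copies is unknown. The sum was 10.4-fold lower in the knockout with no overlap, or 6.34-fold lower without wild-type 2i replicate 3.

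The 7 Rhox4 copies summed to 1.38, 0.748, 4.08 and 2.12 FPKM in wild-type 2i cells, 0.309, 0.34, 0.913 and 0.575 in the knockout, and 1.49, 1.46, 1.38 and 1.21 in FBS. The mean of this sum was 3.9-fold lower in the knockout, and every knockout library lay below every FBS library. The genotypes overlapped in 2i, since the highest knockout library (0.913) lay above the lowest wild-type one (0.748). Wild type in 2i also overlapped FBS. For the Rhox2 copies that lie among them, neither of these overlaps was seen. The 6 Rhox3 copies stayed near 0, at no more than 0.177 FPKM in sum in any library. Rhox13, at the far end of the cluster, read 0.644, 0.519, 2.65 and 0.691 FPKM in wild type, 0.536, 0.479, 0.66 and 0.607 in the knockout, and 0.112, 0.469, 0.562 and 0.522 in FBS, and the groups overlapped.

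**Figure D4:**
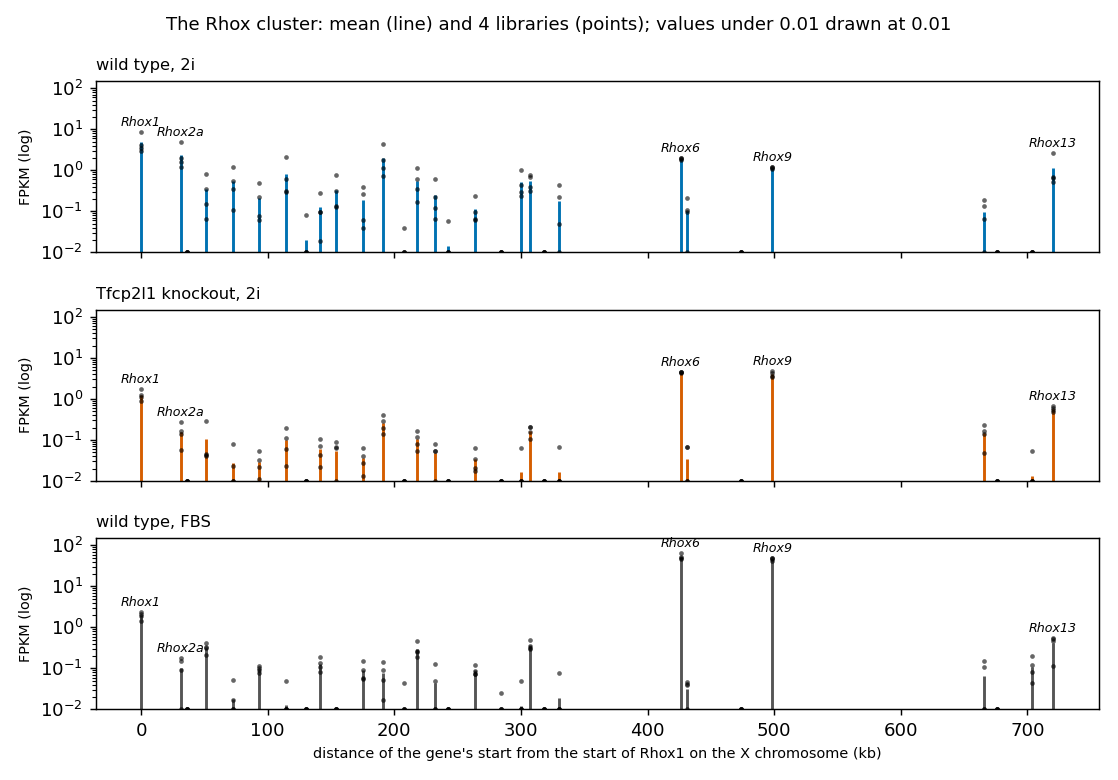
The Rhox cluster in the 3 groups, with distance from the start of Rhox1 (kb) on the horizontal axis and FPKM on a log axis; lines are means of 4 and points are libraries. Levels in FBS peak at Rhox6 and Rhox9, while Rhox1 and the Rhox2 copies are highest in wild-type 2i cells.

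Wild-type 2i replicate 3 stood above the other 3 libraries of its group for Rhox1, Rhox2a, Rhox2e, the Rhox2 and Rhox4 sums, and Rhox13. For the family sum it decided the difference between the genotypes: 12.9, 10.3, 34.4 and 15.8 FPKM in wild type against 12.4, 9.78, 13.1 and 11.4 in the knockout, a log2 ratio of -0.65 that was -0.16 without that library. Rhox1 and Rhox2a kept their calls without it, at -1.01 and -1.15. The other tested genes of the X chromosome had a median log2 difference of 0.05 between the genotypes and -0.06 between the media.

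A list of 20 germline genes whose promoters are held silent by DNA methylation was set beside the families, with 19 tested. Against FBS 18 were higher in 2i and 0 lower, beside 37.1% and 35.3% of all genes tested. In the knockout 6 were higher and 7 lower, beside 24.0% and 21.4% of all genes, with a median of 0.09. Fkbp6, needed for meiosis and the piRNA pathway, was among the lower ones, with means of 32.6 ± 10.1 FPKM in wild-type 2i cells, 6.92 ± 2.4 in the knockout and 1.44 ± 0.498 in FBS. Xlr3a, an X-linked gene, had means of 25.4, 4.52 and 3.41 FPKM in the same order. Tuba3a, also lower in the knockout, had means of 82.3, 32.6 and 5.18 FPKM. Tex19.1, the highest of the list, had means of 95, 104 and 51.4 FPKM and was not called between the genotypes. Markers of the male germ line and Sertoli cells summed to 65.4 to 134 FPKM in wild-type 2i cells, 62.2 to 79.4 in the knockout and 31.7 to 54 in FBS. Of 10 such markers, 6 were tested, of which 3 were higher and 1 lower in the knockout. Against FBS, 3 were higher and 2 lower in 2i. In the LIF and STAT3 list, all 12 genes were tested, and 4 were higher and 3 lower in the knockout. The same shares of all genes stand beside the counts of these 2 lists. Stat3 itself had means of 23.3, 14.3 and 20.5 FPKM.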

How the data were processed

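FPKM in the table that the authors deposited, with 1 row per RefSeq entry and 1 column for each of 12 libraries, were made with CASAVA 1.8.2 and Cufflinks on the mm9 build per the submitters' processing notes. The aligner is not given in the sources used here, nor is how reads that match several copies were divided. Trizol extraction and an Illumina TruSeq kit were used, per the labels' protocols.

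Of 30761 entries, 98.8% received a symbol through RefSeq (GRCm38.p6) and GENCODE, and entries of a symbol were summed. Left out were 7 genes with failed estimates, none of them members. Members of the families held 77 entries. Differences were fitted with limma 3.58.1 (R 4.3.3) on log2(FPKM + 1), a scale that understates differences of low genes, with 1 mean per group over all 12 libraries, on genes that reached 1 FPKM in 4 or more libraries. The p-values were two-sided and adjusted by Benjamini-Hochberg over 12329 genes, with 0.05 as threshold. The fit was tested on simulated data. Members, companion lists and markers were chosen with earlier results of these data known. Named are members with a group mean of at least 1 FPKM, at most 10 per family, besides those the text singles out. From the companion lists, some of the highest genes and of those with the largest called differences are named, not all of them.

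Other settings covered the pseudocount, the filter, the scaling, the fit and leaving out libraries. Cufflinks' bounds for member entries at or above 1 FPKM had a median half-width of 7.84% to 27.5% per library. Shared windows were 50-base stretches of GENCODE transcripts found in another gene.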

Additional observations from a re-analysis of the deposited data

Results flagged for a closer look

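In 2 of the 84 groups of 4 libraries checked, 1 library stood far from the other 3, where chance would give about 1 in 20. Rhox13 stood at 2.65 FPKM in wild-type 2i replicate 3, against 0.519 to 0.691 in the other 3 libraries. Pramel1 stood at 1.28 FPKM in wild-type 2i replicate 4, against 1.65 to 1.69.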

How the results depend on the processing

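Of 1128 recomputed member differences, 1104 kept their direction and their side of the threshold, 20 lost and 2 gained a call, and 2 turned direction. The 2 were of Pramel14 between the genotypes, which was called under no setting and ran from -0.13 to 0.04 when 1 library was left out, with 0.02 without wild-type 2i replicate 3 and 0.04 without knockout replicate 4. Pramel7 lost its knockout call most often, and Pramel16, Pramel31 and Pramel39 lost theirs with pseudocounts of 0.1 and 0.01, and Obox6, Pramel11, Pramel19 and Pramel21 with 0.01. Members called higher in the knockout numbered 13, or 7 with a pseudocount of 0.01 and 7 at an absolute log2 difference of at least 1. Those called lower numbered 6, or 11 with no filter and 2 with a filter of 5 FPKM. Those higher in 2i than FBS numbered 19, or 29 with no filter, 9 with a filter of 5 FPKM and 11 without members that share over 50% of their windows, an alternative chosen after seeing the data. These follow from which members are tested or counted, except for the pseudocount, where the cause was not tested.

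For the summed levels, the Pramel log2 ratio of knockout over wild type was 0.94, but -0.56 over the 22 members other than the 10, and the ratio of 2i over FBS was 2.29, but 4.32 over the 10 and 0.91 over the 22 (also chosen after seeing the data). The value of -0.56 is in part fixed by that choice, since 10 members called higher in the knockout had been taken out. Without Obox6 the Obox ratio of knockout over wild type turned from -0.64 to 0.99. Without its highest member the Rhox ratio of 2i over FBS went from -2.50 to -1.63.

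The labels do not say that a repeat number marks a shared culture or day, and not every same-numbered pair deviated together, so the libraries were treated as unpaired. Correlations of same-numbered deviations ran from -0.0295 to 0.258, with 5 of 12 over 0.1. Between the genotypes in 2i they were 0.0554, 0.258, 0.216 and 0.194 for numbers 1 to 4, and 8 of 12 libraries correlated best with their own number, a hint of pairing from the data and not from the design. With the replicate block, 13 members were called higher and 6 lower in the knockout, and 19 higher and 2 lower in 2i, and no named member changed its call. The number of reads behind the FPKM is unknown, so no floor could be given for members listed at 0.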
